A study of Mus musculus with 16 samples.

Results

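The glutathione S-transferases, UDP-glucuronosyltransferases and sulphotransferases are the conjugating enzymes of liver drug metabolism, and the genes described here are those named Gsta, Gstm, Gstp, Gstt, Gsto, Gstk, Mgst, Ugt1, Ugt2, Ugt3 or Sult on an Illumina bead array. Probes of the array named 49 such genes, none of them a Gstk gene, and 29 were detected (detection p under 0.01) on 2 or more of the 16 arrays, out of 7746 genes that passed the same filter. The 29 are 4 alpha, 6 mu, 2 pi, 1 omega and 3 theta glutathione transferases, 3 microsomal glutathione transferases (Mgst), 7 Ugt genes (4 Ugt1, 2 Ugt2 and Ugt3a2) and 3 sulphotransferases. The 20 that did not pass were 9 Sult, 6 Ugt2 and 2 Ugt1 genes and 1 gene each of the mu, omega and theta classes. The names do not depend on the values, but the detection filter does: a gene could enter through 1 group alone.

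The cells were primary hepatocytes of C57BL/6 mice aged 6 to 8 weeks, all of them infected with an adenovirus. The knockdown groups received virus with shRNA against Hdac4 and Hdac5, which encode class IIa histone deacetylases, and the control groups received a virus labelled GFP, which the design text calls shGFP. Each was treated with forskolin, which activates adenylyl cyclase and raises cAMP, or with its DMSO solvent, for 2 or 4 h, so that 8 groups of 2 arrays resulted. Separate mice or cultures behind the 2 arrays of a group are not stated in the labels. The p-values therefore rest on the scatter of these arrays alone, and that scatter may be technical. How many shRNA sequences were used and how many viruses carried them is not given in the labels.

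Conjugation is the second step of detoxification: a glutathione, glucuronic acid or sulphate group is joined to a drug, toxin, steroid or bile pigment, which makes it more soluble and ready for export. Glutathione transferases quench electrophiles, glucuronosyltransferases sit in the endoplasmic reticulum and use UDP-glucuronic acid, and sulphotransferases use the sulphate donor PAPS in the cytosol. In liver these genes are among the targets of NRF2, of the aryl hydrocarbon receptor and of nuclear receptors such as PXR, through short DNA motifs in their promoters and enhancers.

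Promoter sequences are shown for 3 alpha class genes and the Ugt2b pair, because Gsta1 and Gsta2 moved almost alike while Gsta3 moved less, and because Ugt2b34 and Ugt2b35 gave the largest forskolin rises seen in knockdown cells. The sequences are RefSeq's on GRCm38.p6, with 250 bases before the start site and 30 after it, at chr9:78230419-78230698 on the plus strand for Gsta1, chr9:78347116-78347395 on the minus strand for Gsta2 and chr1:21240335-21240614 on the plus strand for Gsta3. Ugt2b34 lies at chr5:86906908-86907187 on the minus strand and Ugt2b35 at chr5:87000610-87000889 on the plus strand. Capitals mark the dioxin response element core GCGTG in Gsta1 and Gsta2 and a match to the antioxidant response element core TGACNNNGC in Gsta3.
Gsta1: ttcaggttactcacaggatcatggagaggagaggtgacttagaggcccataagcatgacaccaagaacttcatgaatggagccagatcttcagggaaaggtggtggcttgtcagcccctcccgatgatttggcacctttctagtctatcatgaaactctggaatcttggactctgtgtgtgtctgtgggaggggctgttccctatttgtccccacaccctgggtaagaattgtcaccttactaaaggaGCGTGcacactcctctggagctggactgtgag
Gsta2: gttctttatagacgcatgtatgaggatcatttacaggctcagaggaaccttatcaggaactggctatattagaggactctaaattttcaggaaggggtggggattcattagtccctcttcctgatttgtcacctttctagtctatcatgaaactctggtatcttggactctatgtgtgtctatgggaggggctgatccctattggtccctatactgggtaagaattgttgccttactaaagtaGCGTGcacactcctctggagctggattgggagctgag
Gsta3: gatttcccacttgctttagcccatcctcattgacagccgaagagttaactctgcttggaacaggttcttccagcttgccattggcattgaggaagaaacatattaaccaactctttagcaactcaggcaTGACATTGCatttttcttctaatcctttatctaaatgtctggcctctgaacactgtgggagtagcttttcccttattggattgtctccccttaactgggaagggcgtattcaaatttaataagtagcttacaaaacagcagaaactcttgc
Ugt2b34: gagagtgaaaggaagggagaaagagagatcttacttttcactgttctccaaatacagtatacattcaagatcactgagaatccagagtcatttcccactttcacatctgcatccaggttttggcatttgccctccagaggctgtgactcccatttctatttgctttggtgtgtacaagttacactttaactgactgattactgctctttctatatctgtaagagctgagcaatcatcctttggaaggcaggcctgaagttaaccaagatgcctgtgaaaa
Ugt2b35: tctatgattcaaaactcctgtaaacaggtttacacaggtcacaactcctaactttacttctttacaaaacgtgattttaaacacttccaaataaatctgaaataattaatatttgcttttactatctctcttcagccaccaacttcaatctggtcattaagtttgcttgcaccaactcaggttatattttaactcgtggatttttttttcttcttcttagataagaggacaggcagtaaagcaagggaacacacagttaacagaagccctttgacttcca
Aligned end to end over these stretches, the Gsta1 and Gsta2 promoters were identical at 74% of aligned positions, Gsta1 and Gsta3 at 55.1%, and Ugt2b34 and Ugt2b35 at 54%. The table held 32 promoters of 25 of the 29 genes, which were searched on both strands over the table's full 300 bases, of which the first 280 are printed above. TGACNNNGC lay in 4 of the 32 promoters (Gsta3, Gstm5, Gstm7 and Mgst1), against 12.4% of all 32841 promoters of the same length. GCGTG lay in 8 of the 32, belonging to 7 genes, against 32.4% of all promoters. The cAMP response core TGACG lay in 2 of the 32, those of Gstm5 and Gsto1, against 20.8%. In Gstm5 the antioxidant and a dioxin element match overlap. A match is a description of the letters and not of a bound site.

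Between 34.4% and 41% of all 24613 probes were detected per array, and 23 to 27 of the 29 genes. Correlations of log2 signal over the brightest probe of each of the 7746 genes were 0.9919 to 0.9938 between the 2 arrays of a group. Between arrays of different groups they were 0.8857 to 0.9856. For the 29 genes the SD of log2 signal between the 2 arrays of a group had a median of 0.0926. The targets followed the labels: Hdac5 read 5.72 to 6.73 (median 5.88) in the 8 knockdown arrays, against 9.02 to 10.35 (median 9.47) in the 8 control arrays, and Hdac4 read 5.74 to 6.99 (median 6.38) in knockdown, against 7.40 to 8.66 (median 7.52) in control, with no overlap in either. Averaged over the 4 conditions, Hdac5 fell by 3.51 on the log2 scale (SE 0.0641, limma adjusted p = 1.61e-13) and Hdac4 by 1.49 (SE 0.101, adjusted p = 1.96e-08). Some knockdown groups lay below background, where the falls are bounds: at least 6.59-fold and 6.55-fold for Hdac5 with DMSO at 2 and 4 h, and at least 2-fold for Hdac4 with DMSO at 2 h. Hdac7, a class IIa deacetylase not named as a target, also fell by 0.72 on average (SE 0.0595, adjusted p = 1.56e-07), with -0.83 to -1.22 in 3 conditions and 0.06 (adjusted p = 0.67) with forskolin at 4 h.

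Most of the conjugating enzyme genes had less signal in knockdown cells than in control cells. Averaged over the 4 conditions, 28 of the 29 passed the test (limma, adjusted p under 0.05 over all genes), 25 lower and 3 higher in knockdown cells. The viruses differed over a large part of the transcriptome: 73.7% of all genes tested passed, 36.2% lower and 37.5% higher. The median log2 difference, knockdown minus control, was -0.74 over the 29 genes and 0.00 over all genes. Of the 29, 5 were detected on arrays of 1 virus only, so the detection filter favoured a difference between the viruses. They were Mgst2 and Sult4a1 in knockdown cells, and Sult1a1, Gstm7 and Ugt1a1 in control cells. Among the other 24, 22 were lower, Gstt3 was higher, and Gsto1 did not pass the test.

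For 13 genes every knockdown array lay below every control array, and for Sult4a1 every knockdown array lay above. Of these, Sult1a1, Gstm7 and Sult4a1 were detected on arrays of 1 virus only, so the detection filter favoured their separation. Over all genes, 24% had arrays that did not overlap in either direction and 11.7% had knockdown arrays that were all lower. With DMSO at 2 h, 18 of the 29 were lower (all genes 25%) and 2 higher (25.1%), 20 called in all where 50% of all genes were. With DMSO at 4 h, 22 were lower (26.2%) and 3 higher (26.6%), 25 called against 52.7%. Forskolin-treated cells at 2 h had 18 lower (24.7%) and 4 higher (25.4%), 22 called against 50.1%, and at 4 h 21 lower (29%) and 1 higher (30%), 22 called against 59.1%. All of these counts of lower genes include Gstm7, which was below background with both viruses except with forskolin at 4 h. Sult1a1 (lower) and Sult4a1 (higher), each detected on arrays of 1 virus only, count in every condition too. In bulk RNA, fewer cells of a type and less RNA per cell cannot be told apart.

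**Figure D1:**
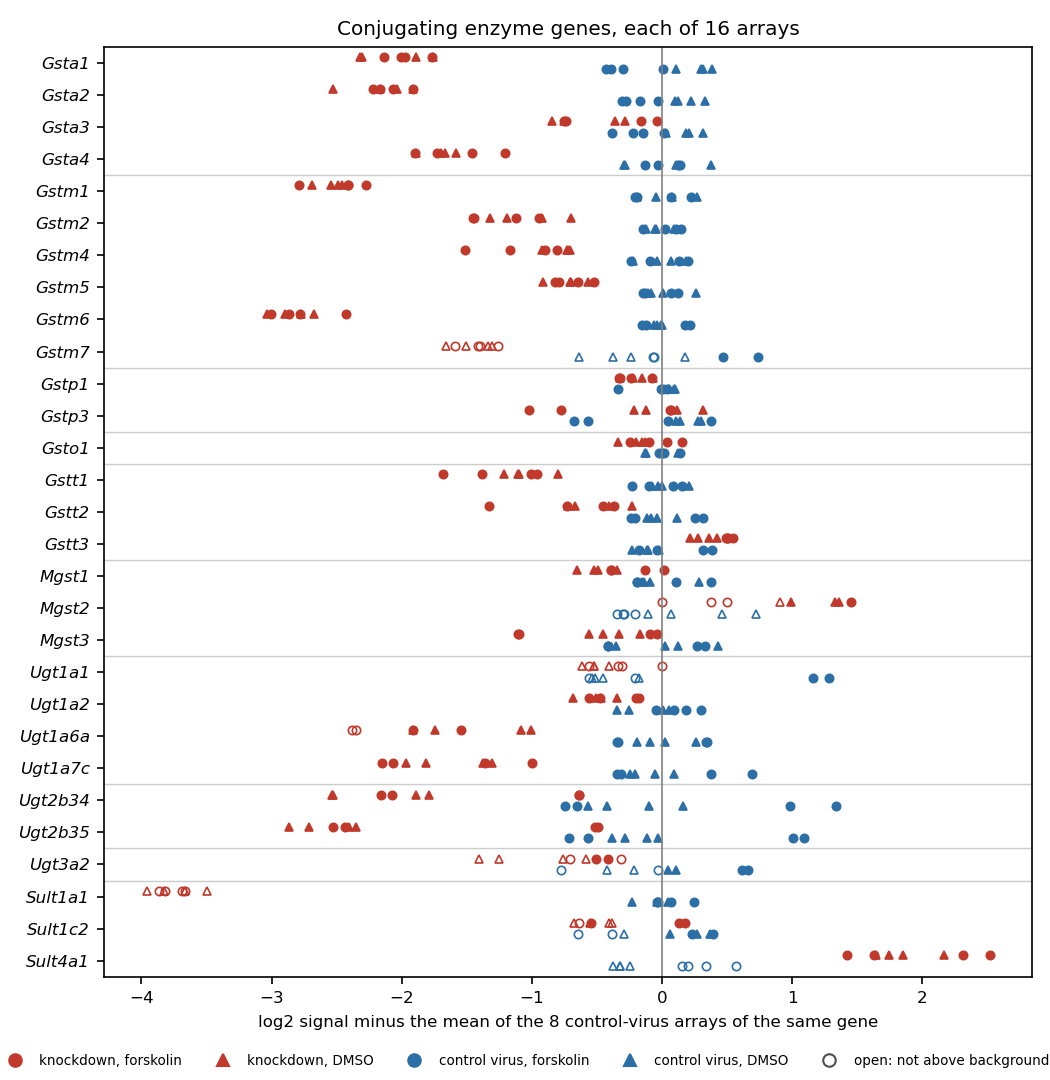
Log2 signal on each array for the 29 genes, with the mean of the 8 control-virus arrays of the same gene subtracted; knockdown arrays are red and drawn above control-virus arrays in blue, circles are forskolin, triangles DMSO, and open symbols lie below the detection threshold. Horizontal lines separate enzyme classes. The red symbols of Gsta1, Gsta2, Gsta4, the 6 mu class genes, Gstt1, Ugt1a6a, Ugt1a7c and Sult1a1 lie left of the blue ones with no overlap, and those of Sult4a1 lie to the right. Gstm7, Sult1a1 and Sult4a1 were detected on arrays of 1 virus only, so the detection filter favoured their separation.

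The 4 alpha class genes, whose enzymes conjugate lipid peroxidation products and other electrophiles, were all lower, with a median difference of -1.83. Gsta2 had a log2 signal of 10.67 to 11.28 (median 11.08) in the 8 knockdown arrays, against 12.89 to 13.53 (median 13.23) in the 8 control arrays. Gsta1 ran at 9.96 to 10.52 (median 10.30) in knockdown, against 11.85 to 12.67 (median 12.35) in control. Gsta4, which clears 4-hydroxynonenal, ran at 10.16 to 10.85 (median 10.38) in knockdown, against 11.76 to 12.43 (median 12.09) in control. None of these ranges overlapped, and the 3 genes fell 4.37-fold, 4.06-fold and 3.12-fold (log2 difference -2.13, SE 0.0691, adjusted p = 1.67e-11; -2.02, SE 0.0609, adjusted p = 8.47e-12; -1.64, SE 0.065, adjusted p = 9.67e-11).

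Gsta3, known in mice for detoxifying the aflatoxin epoxide, fell by 0.49 on average (SE 0.0526, adjusted p = 1.93e-06), with overlapping ranges of 12.86 to 13.67 (median 13.15) in knockdown and 13.32 to 14.02 (median 13.73) in control. Its log2 difference was -1.06 with 2 h of DMSO (adjusted p = 3.37e-06), -0.43 with 4 h of DMSO and -0.44 with 2 h of forskolin, both past the test. With forskolin for 4 h it was -0.04 and did not pass. Gsta1 and Gsta2 fell in each of the 4 conditions. Gsta4 and Gsta1 are neighbours on chromosome 9, with Gsta2 4 genes further, while Gsta3 is on chromosome 1 in the RefSeq gene order. Gsta1 and Gsta2 are near-identical copies, and the probe sequences were not used here, so a probe of one may also bind RNA of the other.

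Of the 6 mu class genes, 5 were lower in the average and in each condition, and Gstm7 was measured in 1 condition. The median fitted difference of the 6 was -1.29. Gstm6 had 9.98 to 10.59 (median 10.19) in knockdown arrays, against 12.87 to 13.23 (median 12.99) in control arrays. Gstm1, a main mu class enzyme of mouse liver, had 10.67 to 11.18 (median 10.98) in knockdown, against 13.25 to 13.73 (median 13.47) in control. Gstm2 had 10.16 to 10.91 (median 10.45) in knockdown, against 11.46 to 11.76 (median 11.60) in control. The knockdown and control arrays of each stood clear of one another. The fall was 7.01-fold for Gstm6 (log2 difference -2.81, SE 0.0649, adjusted p = 8.92e-13), 5.69-fold for Gstm1 (-2.51, SE 0.0723, adjusted p = 5.66e-12) and 2.2-fold for Gstm2 (-1.14, SE 0.0604, adjusted p = 1.76e-09).

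Gstm6 ranked 11 and Gstm1 ranked 18 from the lowest of the 7746 log2 differences. A dimmer probe of Gstm6 gave -1.54, a smaller fall. Gstm7 was below background in 7 of the 8 groups, and control cells at 4 h of forskolin, with 7.16 and 6.89, were the exception. In that condition knockdown cells read 5.02 and 5.16, at least 1.88-fold lower (adjusted p = 1.98e-07), where the bound sets control cells against the lowest signal that counted as detected on the knockdown arrays. Gstm4 (-0.93) and Gstm5 (-0.71) fell less. The 6 genes lie together on chromosome 3, in the order Gstm5, Gstm7, Gstm6, an intervening gene, Gstm2, Gstm1 and Gstm4, so the smallest fall, that of Gstm5, and the largest, that of Gstm6, came from genes 1 gene apart. Mu class genes are alike in sequence, and how far their probes cross-hybridise was not tested.

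The pi and omega class genes had small log2 differences. Gstp1, a pi class enzyme abundant in mouse liver, fell by 0.22 (SE 0.0634, adjusted p = 0.00777) on average and by its brightest probe passed the test in none of the 4 conditions. Its 2 other kept probes fell by 0.21 and 0.30 on average, 1 of them past the test with DMSO at 4 h (-0.41, adjusted p = 0.00473) and forskolin at 4 h (-0.32, adjusted p = 0.0159) and the other with DMSO at 2 h (-0.44, adjusted p = 0.00439) and forskolin at 2 h (-0.29, adjusted p = 0.0372). By the brightest probe the arrays overlapped, at 14.85 to 15.11 (median 14.95) in knockdown and 14.84 to 15.28 (median 15.22) in control. Gstp3 fell by 0.20 (SE 0.0664, adjusted p = 0.017), and with median scaling of the arrays it did not pass (-0.14, adjusted p = 0.149). Gsto1, an omega class enzyme that reduces dehydroascorbate, was the gene of the 29 that did not pass (-0.12, SE 0.0647, adjusted p = 0.102). Adjusted p ran from 0.00558 to 0.255 over the alternatives, under 3 of which it passed.

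Of the theta class, whose enzymes act on small halogenated compounds, Gstt1 fell and Gstt3 rose. Gstt1 ran at 9.04 to 9.93 (median 9.62) in knockdown arrays, against 10.49 to 10.93 (median 10.71) in control arrays, 2.23-fold lower (log2 difference -1.16, SE 0.0649, adjusted p = 3.16e-09). Gstt3, its direct neighbour on chromosome 10, ran at 10.09 to 10.42 (median 10.34) in knockdown, against 9.65 to 10.26 (median 9.81) in control, 1.33-fold higher (0.41, SE 0.046, adjusted p = 2.77e-06). The Gstt1 arrays stood apart and those of Gstt3 overlapped: control cells at 4 h of forskolin read 10.26 and 10.19. Gstt2, on the other side of Gstt1, fell by 0.61 (SE 0.0765, adjusted p = 8.48e-06).

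The microsomal Mgst1 and Mgst3, membrane-bound enzymes that also reduce lipid peroxides, fell on average by 0.37 (SE 0.0727, adjusted p = 0.000522) and 0.48 (SE 0.0663, adjusted p = 2.16e-05). Mgst3 did not pass with DMSO at 2 h (-0.085), nor Mgst1 with forskolin at 2 h (-0.20) or 4 h (-0.30). For both genes the ranges of the 2 viruses overlapped. Mgst2, which can make leukotriene C4, was detected on 4 knockdown arrays and on no control array. Under DMSO at 4 h it read 6.83 and 6.80 in knockdown cells, against 5.36 and 5.54, below background, in control cells. That is at least 1.13-fold higher in knockdown (adjusted p = 0.000272).

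Of the 7 Ugt genes, 6 were lower on average in knockdown cells, and Ugt1a1 could be compared with forskolin at 4 h alone. Of the 6, Ugt3a2 was detected in knockdown cells with forskolin at 4 h alone. Ugt2b35, of a subfamily that acts on steroids and bile acids, had 7.43 to 9.80 (median 7.87) in knockdown arrays, against 9.57 to 11.39 (median 10.09) in control arrays. Ugt2b34 had 7.74 to 9.64 (median 8.29) in knockdown, against 9.53 to 11.61 (median 10.01) in control. Both genes were higher with forskolin at 4 h, so the ranges over all conditions overlap, but within each of the 4 conditions the arrays of the 2 viruses did not overlap. Ugt2b35 was 4.11-fold lower (log2 difference -2.04, SE 0.0491, adjusted p = 1.36e-12) and Ugt2b34 3.44-fold lower (-1.78, SE 0.0625, adjusted p = 3.37e-11).

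Ugt1a6a, an enzyme of simple phenols, ran at 6.17 to 7.54 (median 6.72) in knockdown arrays, against 8.21 to 8.89 (median 8.51) in control arrays, and Ugt1a7c at 9.60 to 10.75 (median 10.15) in knockdown, against 11.41 to 12.44 (median 11.62) in control. Neither pair of ranges overlapped. Ugt1a6a fell 3.34-fold (-1.74, SE 0.0627, adjusted p = 4.21e-11) and Ugt1a7c 3.1-fold (-1.63, SE 0.0669, adjusted p = 1.37e-10). Of 4 kept probes of Ugt1a7c, 3 gave -1.54 to -1.63 and 1 gave -0.63. Ugt1a2 fell by 0.43 on average (SE 0.0862, adjusted p = 0.000568), with overlapping ranges. Of the single conditions it passed the test with forskolin at 4 h alone (-0.62).

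Ugt1a1, the bilirubin glucuronosyltransferase, was detected in a single group, control cells at 4 h of forskolin. There it read 6.70 and 6.58, against 5.41 and 5.11, below background, in the knockdown cells of the same condition, which were at least 1.44-fold lower (adjusted p = 6.23e-06). Ugt3a2, whose human counterpart uses UDP-glucose, had a fitted average of -0.74 (SE 0.113, adjusted p = 5.27e-05). It was detected on 2 knockdown arrays, both with forskolin at 4 h, and on 4 control arrays. Knockdown cells were below background in the other conditions, as were control cells with forskolin at 2 h. The average is therefore no measured size. With forskolin at 4 h the difference was -1.10 and passed the test. Ugt1a genes share their last exons and lie in one cluster on chromosome 1, so signals of different Ugt1a probes may come from the same transcripts.

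Sult1a1, the phenol sulphotransferase, was detected in control cells and in no knockdown array. It read 5.10 to 5.57 (median 5.31) in the 8 knockdown arrays, against 8.83 to 9.31 (median 9.04) in the 8 control arrays. The ranges were far apart, and all of the control arrays were above the detection threshold. The bound on the fall was at least 5.56-fold with 2 h of DMSO, 6.21-fold with 4 h of DMSO, 6.04-fold with 2 h of forskolin and 8.34-fold with 4 h of forskolin. The fitted log2 difference averaged -3.75 (SE 0.0631, adjusted p = 8.75e-14). It is taken against a signal below background, so neither its size nor its place among other genes is measured.

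Sult4a1, a brain-enriched member with no established activity, went the other way. It read 6.75 to 7.85 (median 7.13) in knockdown arrays, all detected, against 4.95 to 5.90 (median 5.28) in control arrays, none detected. It was at least 1.28-fold to 2.01-fold higher in knockdown, depending on the condition, with a fitted average of 1.91 (SE 0.073, adjusted p = 6.91e-11). Sult1c2 fell by 0.36 on average (SE 0.0641, adjusted p = 0.000192), with log2 differences of -0.50 and -0.72 with DMSO at 2 and 4 h and -0.90 with forskolin at 4 h. Knockdown cells with DMSO were below background, so neither these DMSO values nor the average is a measured size. With 2 h of forskolin the Sult1c2 difference was 0.67 (adjusted p = 0.000815), with 6.72 and 6.76 in knockdown cells, against 6.20 and 5.94, below background, in control cells. Detected signals on those control arrays began at 6.81 and 6.67, so this rise had no bound above 1.

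**Figure D2:**
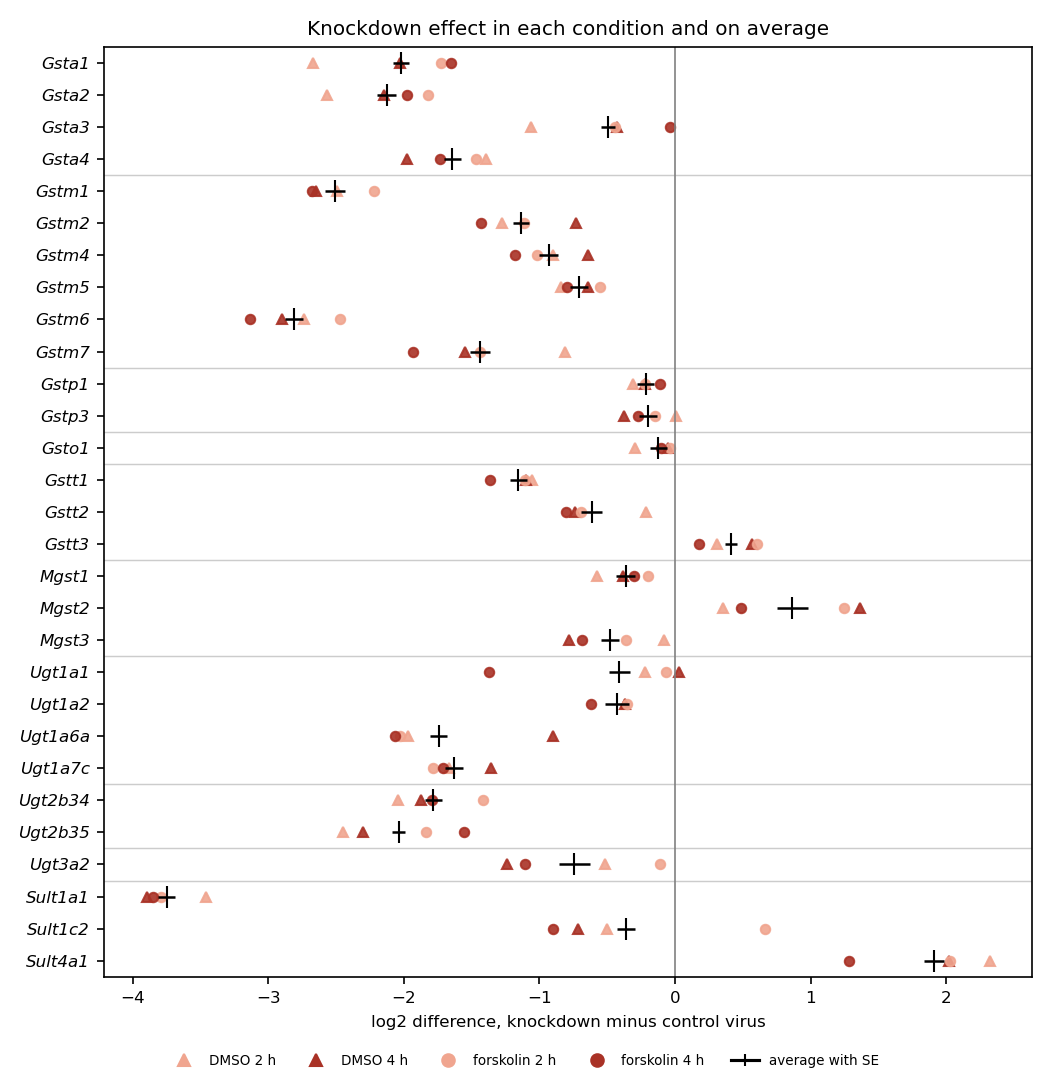
Log2 difference, knockdown minus control virus, for each gene: triangles under DMSO and circles under forskolin, pale at 2 h and dark at 4 h, with the average over the 4 conditions as a black tick and its SE as a line. The fitted averages run from -3.75 for Sult1a1 to 1.91 for Sult4a1. Both are taken against signals below background, so they are no measured sizes. Sult1c2 under forskolin at 2 h lies on the opposite side of 0 from its other conditions, with control cells below background there.

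Genes that supply and surround these enzymes did not all follow. Of 18 measured genes of glutathione supply and NRF2 response, 9 fell and 6 rose, where 36.2% of all genes were lower, 37.5% higher and 73.7% called. Nfe2l2, which encodes NRF2, fell by 1.25 (SE 0.0536, adjusted p = 2.1e-10), while the cystine importer Slc7a11 rose by 2.10 (SE 0.0882, adjusted p = 1.73e-10) and the quinone reductase Nqo1 by 1.45 (SE 0.0633, adjusted p = 2.63e-10). The median log2 difference of the 18 was -0.11. Of 6 measured receptors and factors of drug metabolism, 5 fell and Cebpb rose, with Hnf4a at -1.96 (SE 0.0586, adjusted p = 8.02e-12), the bile acid receptor Nr1h4 at -1.60 (SE 0.0545, adjusted p = 2.66e-11) and Nr1i2, which encodes PXR, at -1.49 (SE 0.0671, adjusted p = 3.43e-10).

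The supply of glucuronic acid and sulphate was mixed, with 3 of 7 genes higher and 2 lower. For this and the next 2 lists the all-gene shares were again 36.2% lower, 37.5% higher and 73.7% called. Slc35d1, which carries UDP-glucuronic acid into the endoplasmic reticulum, fell by 0.94 (SE 0.0875, adjusted p = 4.83e-07). Of 4 export pumps of conjugates, 3 fell, among them Abcc2, the canalicular pump, by 1.07 (SE 0.0449, adjusted p = 1.69e-10). Abcc4 rose by 0.38 (SE 0.0555, adjusted p = 3.69e-05). Of 8 other conjugating and deconjugating enzymes, 6 fell and 1 rose, with the thiopurine methyltransferase Tpmt at -1.25 (SE 0.0612, adjusted p = 8.18e-10) and the glycine conjugating enzyme Glyat at -0.90 (SE 0.0482, adjusted p = 1.97e-09).

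Markers of cell types are given beside the all-gene shares of the averaged contrast, which were 36.2% lower, 37.5% higher and 73.7% called. Of 8 measured hepatocyte markers 6 were lower and 1 higher, with Serpina1a at -3.33 (SE 0.124, adjusted p = 5.36e-11), and their summed level was 15.7 to 16.03 in knockdown arrays, against 16.15 to 16.62 in control arrays (log2). Alb, Tat and Fgb were not detected on 2 or more arrays, and Cps1 was not measured either. The 5 measured of 6 listed endothelial markers were higher, with summed levels of 10.3 to 11.05 in knockdown, against 9.77 to 10.3 in control. So were the 3 measured of 6 listed stellate cell markers, at 13.14 to 13.39 in knockdown, against 12.7 to 13.02 in control. The 3 measured of 5 listed bile duct markers were lower, at 9.94 to 10.44 in knockdown, against 11.44 to 12.73 in control. Of 4 measured macrophage markers, from 10 listed symbols, 2 were lower and 1 higher. Their summed level was 11.26 to 12.12 in knockdown, against 11.72 to 12.06 in control. No lymphocyte marker was detected. Their part in the fall of the conjugating enzyme genes was not tested.

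Several Ugt genes were higher with forskolin at 4 h, in cells of either virus. In knockdown cells at 4 h, 11 of the 29 were called, 4 higher and 7 lower, where 35.3% of all genes were called (17.4% higher, 18% lower). In control cells at 4 h, 13 were called, 9 higher and 4 lower, where 32% of all genes were (14.4% higher, 17.7% lower). The 2 contrasts have no arrays in common.

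Ugt2b35 had 9.80 and 9.77 with forskolin in knockdown cells at 4 h, against 7.94 and 7.88 with DMSO, and 11.30 and 11.39 with forskolin in control cells, against 10.18 and 10.26 with DMSO. Ugt2b34 had 9.64 and 9.64 with forskolin in knockdown cells at 4 h, against 8.48 and 8.39 with DMSO, and 11.61 and 11.26 with forskolin in control cells, against 10.44 and 10.18 with DMSO. In each pair both forskolin arrays were above both DMSO arrays. Ugt2b35 rose 3.67-fold in knockdown (1.87, SE 0.0982, adjusted p = 4.44e-08) and 2.18-fold in control cells (1.13, SE 0.0982, adjusted p = 2.25e-06), and Ugt2b34 2.31-fold in knockdown (1.21, SE 0.125, adjusted p = 1.26e-05) and 2.18-fold in control cells (1.13, SE 0.125, adjusted p = 1.88e-05). With forskolin at 4 h, both genes still had less signal in knockdown cells than in DMSO-treated control cells of the same time.

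The other risers at 4 h in knockdown cells were Ugt3a2 (0.87, SE 0.226, adjusted p = 0.0101, below background with DMSO and with no bound above 1) and Mgst1 (0.45, SE 0.145, adjusted p = 0.0301). In control cells Ugt1a1 was detected with forskolin and not with DMSO, with 6.70 and 6.58 under forskolin, against 4.96 and 4.87, below background, under DMSO. The fitted rise was 1.72 (SE 0.152, adjusted p = 2.53e-06), but the bound was at least 1.00-fold, since the forskolin arrays sat just at the detection limit of the DMSO arrays. Ugt3a2 (0.73), Gstm7 (0.64, at least 1.31-fold), Gstt3 (0.52), Ugt1a7c (0.51) and Ugt1a6a (0.48) also rose in control cells. Sult4a1 passed the test there as well but was below background under both treatments. The other kept probes of Ugt1a7c gave 0.371, 0.545 and 0.015 in control cells, the last not past the test. In knockdown cells the same probes gave 0.491 (adjusted p = 0.0117), 0.223 and -0.064, of which the first alone passed.

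Gstp3 and Mgst3 fell with forskolin at 4 h in both viruses. Gstp3 had 10.21 and 9.97 with forskolin in knockdown cells, against 10.87 and 10.78 with DMSO, and 10.31 and 10.42 with forskolin in control cells, against 11.27 and 11.13 with DMSO. Its log2 difference was -0.73 in knockdown (SE 0.133, adjusted p = 0.001) and -0.83 in control cells (SE 0.133, adjusted p = 0.000379), with no overlap of arrays in either. Mgst3 fell by 0.59 in knockdown (SE 0.133, adjusted p = 0.00402) and by 0.69 in control cells (SE 0.133, adjusted p = 0.0015). In control cells Gsta1 (-0.62) and Gsta2 (-0.40) also fell. In knockdown cells Mgst2 (at least 1.63-fold, to below background), Ugt1a6a (-0.68), Gstm2 (-0.63), Gstm4 (-0.62) and Gstt1 (-0.38) fell.

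At 2 h the response was smaller. In knockdown cells 2 of the 29 genes passed the test, with 4.8% of all genes called (2.29% higher, 2.52% lower). Sult1c2 rose by 0.77 (SE 0.128, adjusted p = 0.00278, at least 1.21-fold) and Ugt1a6a fell by 0.54 (SE 0.125, adjusted p = 0.0259, at least 1.18-fold, to below background). Sult1c2 had 6.72 and 6.76 with forskolin, against 5.90 and 6.03, below background, with DMSO. In control cells at 2 h 10 passed, 4 higher and 6 lower, with 21.3% of all genes called (10.6% higher, 10.8% lower). Of all called genes 49.5% were higher, and 13.9% with median scaling of the arrays. Gsta3 fell by 0.57 (SE 0.105, adjusted p = 0.00184), with 13.32 and 13.48 under forskolin, against 14.02 and 13.91 under DMSO, and Gsta1 fell by 0.50 (SE 0.122, adjusted p = 0.0109), with 12.30 and 11.99 under forskolin, against 12.67 and 12.60 under DMSO. Ugt1a6a (-0.48), Sult1c2 (-0.40, below background with forskolin) and Ugt2b35 (-0.31) were lower, and Mgst3 (0.46 by its brighter probe) and Gsta4 (0.42) higher. Mgst2, Gstm7 and Sult4a1 passed while below background under both treatments.

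The count of 10 at 2 h in control cells depended on single arrays: it was 4 without DMSO array A, 5 without DMSO array B, 5 without forskolin array A and 2 without forskolin array B. Leaving out any of the 4 arrays compared in knockdown cells at 2 h left 1 call of 2.

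**Figure D3:**
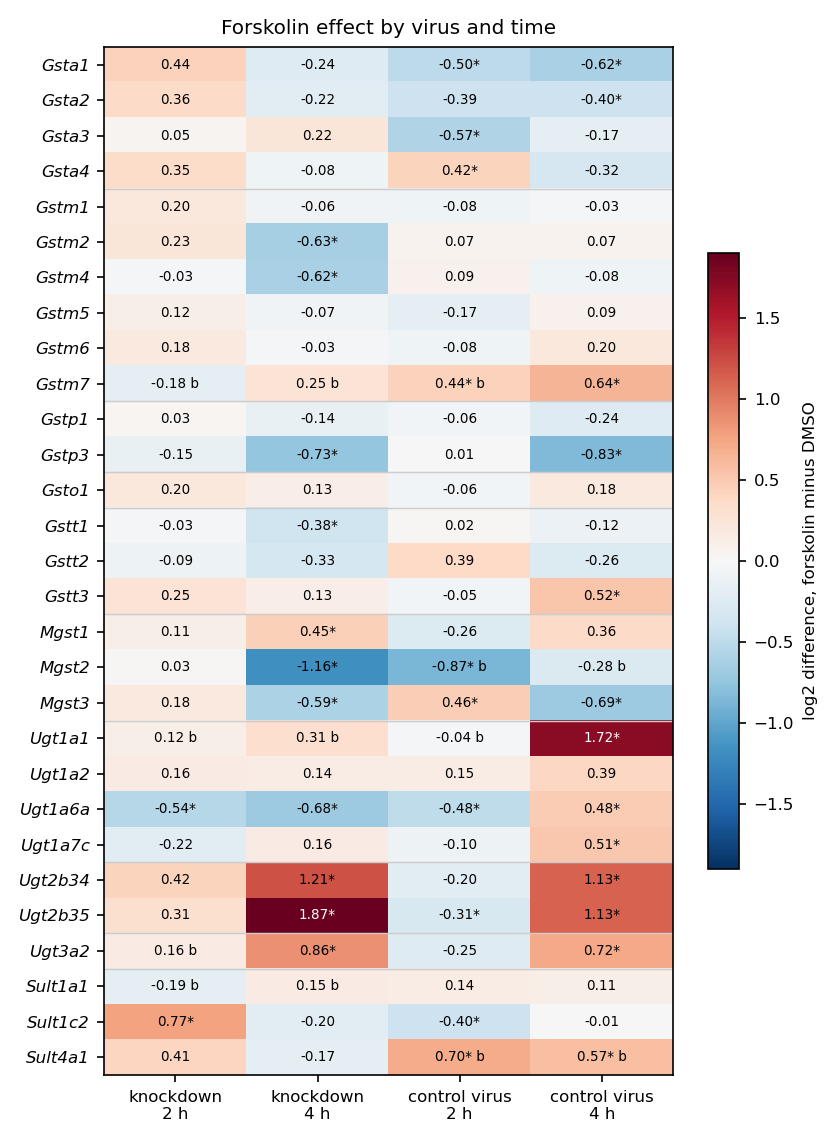
Log2 difference, forskolin minus DMSO, for each gene in knockdown and control-virus cells at 2 and 4 h, red where higher with forskolin and blue where lower; an asterisk marks a limma adjusted p under 0.05 and b marks genes below background under both treatments. The Ugt2b34 and Ugt2b35 cells at 4 h hold 1.21 and 1.87 in knockdown and 1.13 and 1.13 in control cells, and Gstp3 at 4 h holds -0.73 and -0.83.

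Whether the forskolin effect differed between the viruses was tested as an interaction, taken as the forskolin effect in knockdown minus that in control cells. At 2 h, 5 genes passed and all were positive, with 5.96% of all genes called (3.12% positive, 2.84% negative). Of all called genes 52.4% were positive, and 82.7% with median scaling of the arrays. They were Sult1c2 (1.17, SE 0.181, adjusted p = 0.00171, with 2 of its 4 groups below background), Gsta1 (0.94, SE 0.172, adjusted p = 0.00552), Gsta2 (0.75, SE 0.195, adjusted p = 0.0421), Gsta3 (0.62, SE 0.149, adjusted p = 0.0264) and Ugt2b35 (0.61, SE 0.139, adjusted p = 0.0202). The alpha class effects of forskolin behind them were 0.44, 0.36 and 0.05 in knockdown cells for Gsta1, Gsta2 and Gsta3, none of which passed the test, against -0.50, -0.39 and -0.57 in control cells, of which Gsta1 and Gsta3 passed. The count was 2 without control DMSO array A or knockdown DMSO array B, and 3 without control forskolin array B or either knockdown forskolin array. The Gsta1 and Sult1c2 interactions passed in all 24 and 23 alternatives run, whereas that of Gsta2 was lost in 16 of 24, with adjusted p from 0.0054 to 0.151.

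At 4 h, 5 genes passed the interaction test, 1 positive and 4 negative, with 8.57% of all genes called (4.8% positive, 3.77% negative). Of all called genes 56% were positive, and 78% with median scaling. Ugt2b35 was positive (0.75, SE 0.139, adjusted p = 0.00475), and Ugt2b34 was not past the test (0.08, adjusted p = 0.835). Ugt1a6a was negative (-1.17, SE 0.177, adjusted p = 0.00124): it had 6.64 and 7.01 with forskolin in knockdown cells, against 7.54 and 7.47 with DMSO, and 8.89 and 8.89 with forskolin in control cells, against 8.46 and 8.36 with DMSO. Forskolin arrays were thus below DMSO arrays in knockdown cells and above them in control cells. Of the 2 other Ugt1a6a probes, 1 gave -1.29 (adjusted p = 0.000469) and 1 gave -0.38 (adjusted p = 0.341).

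Ugt1a1 (-1.41, SE 0.215, adjusted p = 0.00126) and Sult4a1 (-0.74, SE 0.206, adjusted p = 0.0453) were negative too, each with groups below background, as was Gstm2 (-0.70, SE 0.171, adjusted p = 0.0239). The count at 4 h was 3 without control DMSO array A, control forskolin array B, knockdown DMSO array B or either knockdown forskolin array.

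**Figure D4:**
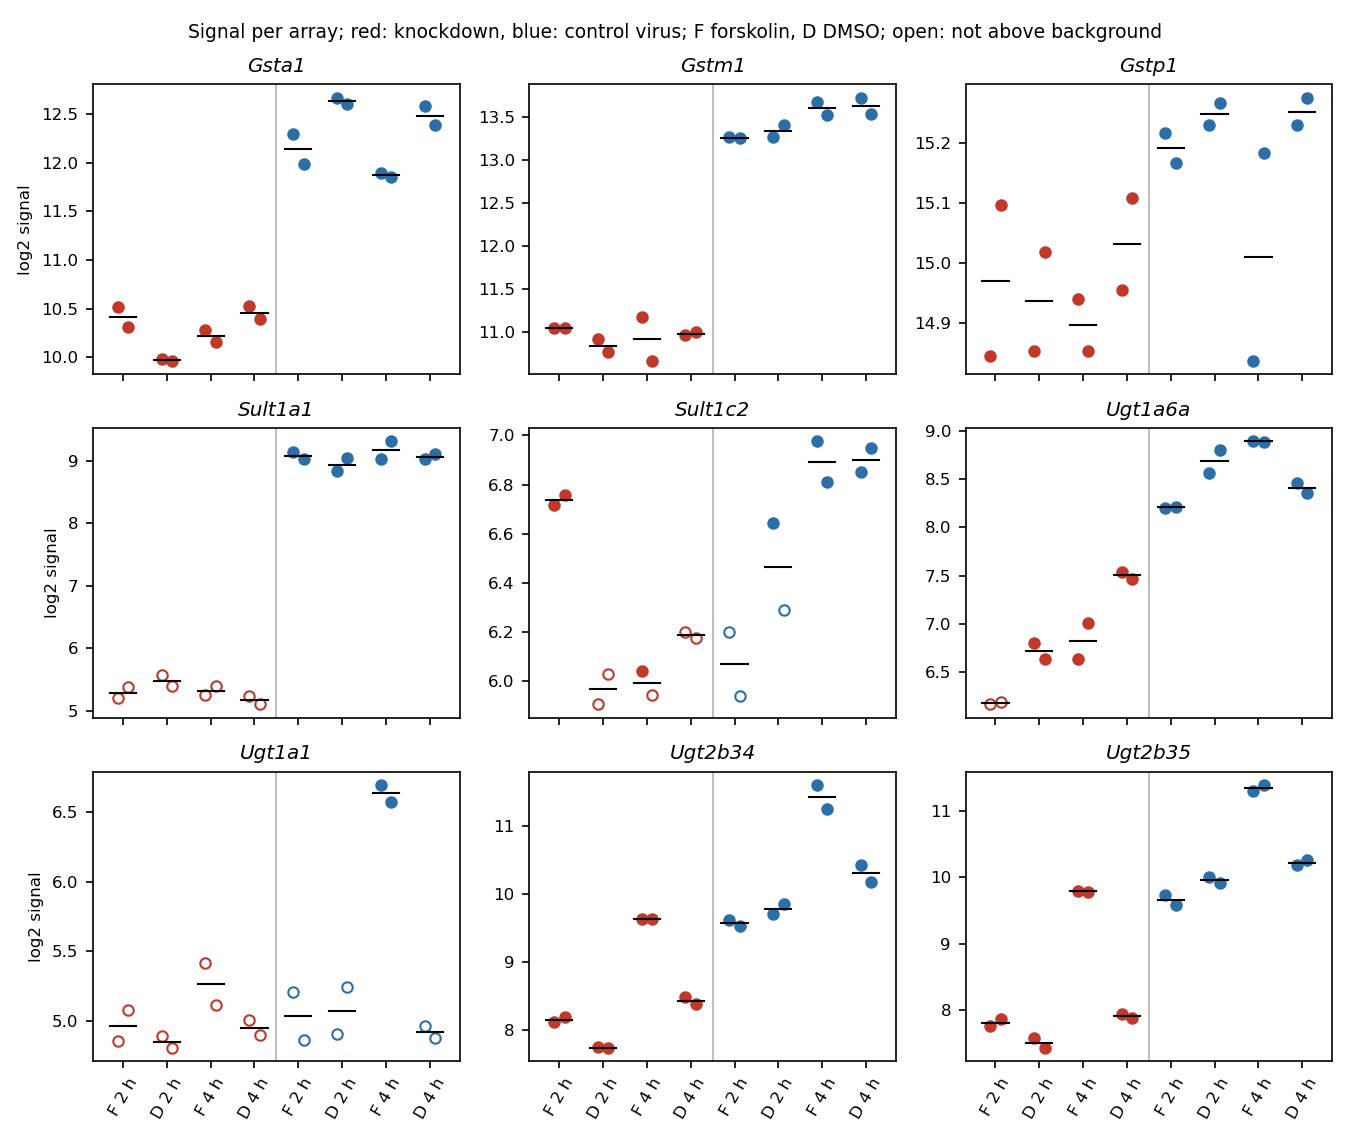
Log2 signal on each array for 9 genes, knockdown in red left of control virus in blue, with forskolin (F) left of DMSO (D) at each time; lines are means of 2 arrays and open circles lie below the detection threshold. The scales differ between panels and levels of different genes cannot be compared. Sult1a1 reads 5.10 to 5.57 in knockdown and 8.83 to 9.31 in control arrays, and Ugt1a1 is filled in 1 group alone.

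In control cells the forskolin effect at 4 h was also tested against that at 2 h, and 12 of the 29 genes passed, 8 higher and 4 lower at 4 h, with 26.6% of all genes called (12.6% higher, 14% lower). Of all called genes 47.3% were higher, and 66% with median scaling. Of the 8, 6 were Ugt genes, among them Ugt2b35 (1.43, SE 0.139, adjusted p = 1.11e-05) and Ugt2b34 (1.33, SE 0.177, adjusted p = 0.000132). Ugt3a2 (0.97, SE 0.32, adjusted p = 0.0398) was below background with forskolin at 2 h. Ugt1a1 (1.76, SE 0.215, adjusted p = 6.98e-05) was below background in 3 of the 4 groups and entered the set through the fourth, so its value is no measured size. The 4 lower were Mgst3 (-1.15, SE 0.188, adjusted p = 0.000646), Gstp3 (-0.84, SE 0.188, adjusted p = 0.00551), Gsta4 (-0.74, SE 0.184, adjusted p = 0.00991) and Gstt2 (-0.65, SE 0.216, adjusted p = 0.0424). Mgst3 had 10.81 and 10.87 with forskolin at 2 h, against 10.19 and 10.57 with DMSO, and 10.13 and 10.13 with forskolin at 4 h, against 10.66 and 10.97 with DMSO. By this brighter probe the direction was thus opposite at the 2 times. The dimmer kept probe of Mgst3 gave 0.20 at 2 h, not past the test (adjusted p = 0.304), and -0.61 at 4 h (adjusted p = 0.00247). Without forskolin array A of 2 h the count was 8.

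Some genes changed between the DMSO times themselves. In knockdown cells 7 were higher at 4 h than at 2 h and none lower, with 8.64% of all genes called (4.48% higher, 4.16% lower), and Ugt1a6a (0.79, SE 0.125, adjusted p = 0.00159) and Ugt2b34 (0.69, SE 0.125, adjusted p = 0.00366) moved most. Gsta1 (0.49), Gsta3 (0.48), Gstm2 (0.45), Ugt1a7c (0.55) and Ugt2b35 (0.41) were the others. In control cells Gsta4 (0.53), Ugt2b34 (0.53) and Sult1c2 (0.44) were higher at 4 h and none lower, with 11.7% of all genes called (6.04% higher, 5.67% lower). The 7 in knockdown cells became 3 or 4 without any 1 of the 4 arrays compared, and the 3 in control cells became 1 without array A of 2 h.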

How the data were processed

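RNA of 16 hepatocyte samples was hybridised as biotinylated cRNA to Illumina bead arrays. Each deposited intensity is the brightness of a probe on a linear scale, which the authors obtained with GenomeStudio, a tool the submitters' processing notes name without a version. The p-value deposited beside each intensity is a detection p per the file headers. The deposited normalized intensities served as an alternative, and their normalization method is not given. Array columns were tied to groups by the labels, and the letters A and B only name arrays.

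The neqc function (limma 3.58.1, R 4.3.3) corrected the background from the detection p-values, added an offset of 16, normalized by quantiles and took log2. This narrows the differences of dim probes and gives all arrays one distribution. Of 24613 probes, 10439 were detected (p under 0.01) on 2 or more arrays and 9308 of those named 1 gene. The brightest probe was used per gene, which left 7746 genes. A limma model of 8 group means gave 14 contrasts with two-sided moderated tests (8 residual and 4.6 prior degrees of freedom), adjusted by Benjamini-Hochberg over all genes. A group is below background where no array detected the gene, and a bound of "at least N-fold" compares the mean of the bright group with the lowest detected signal of the dim group's arrays, or the probe's own where higher. Contrasts share arrays, so their values are given side by side. The number of arrays limits the precision.

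Named were up to 4 largest rises and falls per enzyme class in the averaged knockdown contrast and over all genes of the set in each forskolin contrast and interaction, with up to 3 smallest p in each list of related genes. Calls of members outside that rule were added as values after they were seen. The members and lists were chosen with earlier results of these data known. Promoters came from a RefSeq table of GRCm38.p6; the array annotation's build is not given in the sources used here, and chromosomes and gene order were taken from RefSeq. Alternatives were the authors' normalized values, no background correction, median scaling, a stricter and no filter on dim probes, every kept probe, only the compared arrays, DMSO arrays of the other time, the replicate letter as a block, and leaving out each array. Median scaling over detected probes was added after seeing the data. The model was tested on simulated log2 values.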

Additional observations from a re-analysis of the deposited data

Results flagged for a closer look

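The values below are effects that differed between viruses or between times by a direct test of the difference (limma interaction, adjusted p under 0.05), each over 8 arrays of 4 groups. Those whose forskolin effect differed between knockdown and control cells at 2 h were Sult1c2 (1.17), Gsta1 (0.94), Gsta2 (0.75), Gsta3 (0.62) and Ugt2b35 (0.61), with the forskolin effect in knockdown minus that in control cells given. At 4 h they were Ugt2b35 (0.75), Gstm2 (-0.70), Sult4a1 (-0.74), Ugt1a6a (-1.17) and Ugt1a1 (-1.41). Of these, Sult1c2 at 2 h and Sult4a1 and Ugt1a1 at 4 h had groups below background, so their values are no measured sizes.

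In control cells the forskolin effect at 4 h minus that at 2 h passed for 12 genes. It was positive for Ugt1a1 (1.76), Ugt2b35 (1.43), Ugt2b34 (1.33), Ugt3a2 (0.97), Ugt1a6a (0.96), Mgst1 (0.63), Ugt1a7c (0.62) and Gstt3 (0.57), and negative for Mgst3 (-1.15), Gstp3 (-0.84), Gsta4 (-0.74) and Gstt2 (-0.65). Ugt1a1 was below background in 3 of these 4 groups and Ugt3a2 in 1.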

How the results depend on the processing

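Of 185 gene results past the test, 4462 alternatives were run, and 4140 kept direction and call, 317 kept direction but missed the threshold and 5 turned direction. Of 5397 alternatives of the 221 results not past the test, 131 crossed it and 2 did so with the opposite sign. No scaling turned the direction of a called gene of the set. Median scaling over all probes did move the median of all genes from -0.01 to -0.26 for forskolin at 2 h in control cells. There 13.9% of called genes were then higher, against 49.5% in the values reported. Scaling over detected probes, chosen after seeing the data, left the all-gene medians between -0.041 and 0.016. With median scaling over all probes the share of called genes that were higher was also 67.3% and 65.8%, in place of 50.7% and 50.9%, for knockdown under forskolin at 2 and 4 h, 30.7% in place of 44.8% for forskolin at 4 h in control cells, and 35.3% in place of 51.6% for DMSO times in control cells. The turned results were, with DMSO arrays of the other time, Gsta4 (-0.11) and Gstm7 (-0.032) for forskolin at 2 h in control cells, Sult1c2 (0.43) at 4 h in control cells, Gsta3 (-0.42) at 2 h and Ugt1a6a (0.10) at 4 h in knockdown cells. With another probe they were Ugt1a6a at 4 h in knockdown cells (0.045) and the time interaction of Ugt1a7c (-0.19). The cause was not tested.

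Counts that moved by over 1.5 times were these. For forskolin at 2 h in control cells 10 became 6 with probes detected on all arrays (21 genes left) or with no filter, 3 with only the compared arrays and 5 with the other DMSO arrays. For 4 h in control cells 13 became 8 with probes detected on all arrays. For 2 h in knockdown cells 2 became 1 with probes detected on all arrays, only the compared arrays or every kept probe, and 8 with the other DMSO arrays. The 2 h virus interaction went to 2 of 5 with only the compared arrays, and that at 4 h to 3 with median scaling and 2 with probes detected on all arrays. DMSO 4 h against 2 h in control cells went to 1 of 3 with median scaling and 0 with only the compared arrays, and in knockdown cells to 3 of 7 with either and 4 with every kept probe.

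Leaving out 1 array gave 28 to 29 calls for the averaged knockdown, 19 to 21 under DMSO at 2 h, 23 to 25 under DMSO at 4 h, 21 to 22 under forskolin at 2 h and 21 to 23 at 4 h. It gave 2 to 10 for forskolin in control cells at 2 h and 10 to 14 at 4 h, 1 to 3 in knockdown cells at 2 h and 8 to 11 at 4 h, 2 to 5 and 3 to 5 for the virus interactions, 8 to 12 for the time interaction, and 1 to 3 in control and 3 to 8 in knockdown cells for DMSO times. Where 1 array remained, its scatter was taken from the other groups.

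Arrays of the same letter correlated in their deviations from group means at 0.049 to 0.307 over 28 pairs of groups, all positive and 25 of them above 0.1. The letters were taken to pair the arrays if all 28 were above 0.1, so the block stays an alternative, although these values are a hint from the data that arrays of a letter share something. With the letter as a replicate block the averaged knockdown count stayed at 28, forskolin at 2 h in knockdown cells had 4 calls in place of 2 and DMSO times in control cells 5 in place of 3. The other counts stayed within 1.5 times.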
